A study of Mus musculus with 22 samples.

Results

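C-type lectin receptors are surface proteins with which macrophages recognise sugars and lipids of microbes and of dying cells. The 9 genes described here, all on chromosome 6, are Clec4d, Clec4e, Clec4n, Clec7a, Clec5a, Clec4a2, Clec4a3, Clec12a and Clec2d, and each was followed through every array probe whose RefSeq accession names it. For 8 of the 9 genes 1 such probe was found and tested, among 22383 genes tested in all. The accessions of the probes named none for Clec7a, which codes for the β-glucan receptor Dectin-1, so no value is given for it.

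Bone marrow-derived macrophages (BMDM) were compared from wild-type mice (wt), from mice deficient in the p38 MAPK-activated protein kinase MK2 (MK2-/-) and from mice deficient in both MK2 and its relative MK3 (MK2/3-/-). All mice were labelled as male C57BL/6 animals of 10 to 14 weeks, with a C57BL/6J background given in the methods for the deficient lines, and femoral marrow had been grown for 9 days with 10 ng/ml of the macrophage growth factor M-CSF, which per the methods was withdrawn 1 h before treatment. The cells were then kept for 360 min in medium or with 100 ng/ml lipopolysaccharide (LPS), a component of the Gram-negative outer membrane that Toll-like receptor signalling detects. There were 3 LPS and 4 medium arrays of wt BMDM, 4 and 4 of MK2-/- BMDM, and 4 and 3 of MK2/3-/- BMDM, 22 in all.

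Each culture was hybridised to its own 1-colour Agilent array, so that a level is the log2 of a probe's processed signal after quantile normalisation across the arrays, and all levels and differences below are on that log2 scale. The number of arrays limits the precision. Between 61.1% and 82.7% of the probes of an array were well above background, and no probe was saturated. Each genotype had a slide of its own, which carried both its LPS and its medium arrays, hence in a direct comparison of genotypes an effect of the genotype and of its slide cannot be told apart. The signal of Mapkapk2, which codes for MK2, was lower than in wt by 3.28 (log2, adjusted p = 2.69e-05) in LPS-treated MK2-/- BMDM and by 3.87 (adjusted p = 2.39e-06) in MK2/3-/- BMDM, and that of Mapkapk3, which codes for MK3, by 4.11 (adjusted p = 1.53e-08) in MK2/3-/- BMDM. In medium, Mapkapk3 was lower than in wt by 1.97 (adjusted p = 5.52e-04) in MK2/3-/- BMDM, at a mean level of 11.16. Mapkapk2 had a mean of 11.61 in LPS-treated MK2-/- BMDM, where it rose 6.63-fold with LPS, and of 11.90 in wt medium arrays. Both probes stayed well above background on every array. Where these probes lie relative to the deleted parts is not given in the sources used here. Of 7 macrophage markers with a named probe, 7 were well above background on every array. Markers of other cell types also gave signal. Per group, 5 to 8 of 9 neutrophil and 3 to 4 of 5 fibroblast markers were well above background on all arrays. For dendritic and lymphoid cell markers this was 3 to 6 of 7 and 3 to 6 of 8. The part of such cells in the receptor levels was not tested. On 2 arrays, the third replicate of LPS-treated and the third of medium-treated MK2-/- BMDM, the mean level of 4 Y-linked genes was 2.07 and 2.33, compared with 6.86 to 8.82 on the other 20, although the mice were labelled as male. The LPS array of these 2 also had 2927 spots marked by the scanner software, compared with 115 to 261 elsewhere. No call of a C-type lectin receptor reported here was lost when both arrays were left out.

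Most receptors of this family sit in a cluster of myeloid or natural killer receptor genes. The activating members Clec4e (Mincle), Clec4d, Clec4n (Dectin-2) and Clec5a have no signalling tail of their own and pair with adaptor proteins that carry an immunoreceptor activation motif, chiefly the Fc receptor γ-chain (Fcer1g) or, for Clec5a, Tyrobp (DAP12). The kinase Syk then signals through Card9, Bcl10 and Malt1 to NF-κB. Clec4a2 and Clec12a carry an inhibitory motif that recruits phosphatases, Clec4a3 is a close relative of Clec4a2, and Clec2d (Clr-b) is a ligand for an inhibitory receptor of natural killer cells.

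The windows before the start sites are shown for Clec4e and Clec2d, the receptors with the largest rises after LPS in wt BMDM, and for Clec4d, the neighbour and partner of Clec4e whose level did not move by a called amount. Each runs 5′ to 3′ on the gene's strand from 250 bases before to 50 bases after the start, from RefSeq on GRCm38.p6, with chr6:123289822-123290121 (minus strand) for Clec4e, chr6:123261857-123262156 (plus strand) for Clec4d and chr6:129180365-129180664 (plus strand) for Clec2d. Capitals mark matches, on either strand, to letters used for the binding of NF-κB (GGANNTTCC), C/EBP (TTNNGCAA), PU.1 (GAGGAA), AP-1 (TGANTCA) and interferon-response factors (GAAANNGAA).
Clec4e: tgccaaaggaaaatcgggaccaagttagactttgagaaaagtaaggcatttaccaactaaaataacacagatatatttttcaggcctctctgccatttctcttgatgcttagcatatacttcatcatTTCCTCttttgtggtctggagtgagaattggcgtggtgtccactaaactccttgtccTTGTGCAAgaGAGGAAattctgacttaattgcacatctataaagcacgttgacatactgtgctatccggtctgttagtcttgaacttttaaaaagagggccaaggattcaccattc
Clec4d: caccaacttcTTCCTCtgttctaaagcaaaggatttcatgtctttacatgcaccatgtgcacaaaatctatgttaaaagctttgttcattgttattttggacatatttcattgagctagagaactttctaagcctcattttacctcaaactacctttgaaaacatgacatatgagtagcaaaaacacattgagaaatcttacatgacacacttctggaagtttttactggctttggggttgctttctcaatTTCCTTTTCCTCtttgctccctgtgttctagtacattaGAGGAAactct
Clec2d: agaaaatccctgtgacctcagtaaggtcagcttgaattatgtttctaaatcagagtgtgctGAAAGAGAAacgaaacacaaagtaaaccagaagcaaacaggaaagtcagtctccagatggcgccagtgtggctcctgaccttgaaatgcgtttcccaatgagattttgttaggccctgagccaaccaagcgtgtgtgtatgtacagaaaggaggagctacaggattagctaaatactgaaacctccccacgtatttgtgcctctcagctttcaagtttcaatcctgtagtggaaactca
Windows of this length were found for 8 of the 9 genes, not for Clec4n, and numbered 10 in all. The window of Clec4e holds a C/EBP match from position -66 to -59 relative to the start, close to a PU.1 match from -56 to -51, and a second PU.1 match further upstream. That of Clec4d holds 3 PU.1 matches, of which the middle one overlaps a match to the interferon-response letters, and that of Clec2d only a match to the interferon-response letters, from position -189 to -181. PU.1 letters stood in 7 of the 10 windows, 2 of them nearly the same window of Clec7a, and in 28.3% of all 32851 windows in the table. C/EBP letters stood in 2 of the 10 (Clec4e and Clec12a) and in 10.8% of all, AP-1 letters in 2 (Clec4a2 and Clec12a) and in 7.81%, and interferon-response letters in 2 (Clec4d and Clec2d) and in 8.56%. None of the 10 held the NF-κB letters, which were present in 4.26% of all windows. A match is a description of the letters, not a binding site.

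LPS raised Clec4e and Clec2d strongly and Clec5a moderately in BMDM of all 3 genotypes, lowered Clec4a2 in both kinase-deficient genotypes and Clec4a3 in MK2/3-/- BMDM, and left Clec4d without a called difference. In cultures, fewer cells of a type and less RNA per cell cannot be told apart. In wt BMDM, 3 of the 8 receptors were called higher after LPS and 0 lower, where 18.6% of all genes were called higher and 23.5% lower (limma, Benjamini-Hochberg adjusted p below 0.05 over all genes). In MK2-/- BMDM 4 were higher and 1 lower, with 17.5% and 27.1% over all genes, and in MK2/3-/- BMDM 4 were higher and 3 lower, with 20.2% and 27.9%. The median difference over the 8 receptors was 0.24 in wt, 0.67 in MK2-/- and 0.28 in MK2/3-/- BMDM, against -0.04, -0.01 and 0.01 over all genes. Without the 2 arrays of low Y-linked signal, the called LPS differences in MK2-/- BMDM were 4.66 for Clec4e, 2.73 for Clec2d, 1.55 for Clec12a, 1.03 for Clec5a (adjusted p = 0.0425) and -3.21 for Clec4a2.

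Clec4e, which binds mycobacterial glycolipids, showed the largest response of the 8. In medium, its level was 13.07, 12.16, 11.57 and 13.65 in wt, 13.66, 12.52, 12.19 and 12.63 in MK2-/- and 13.88, 11.56 and 11.92 in MK2/3-/- BMDM. After LPS it was 16.75, 17.04 and 16.68 in wt, 17.90, 17.75, 17.46 and 17.14 in MK2-/- and 17.49, 17.22, 16.85 and 16.83 in MK2/3-/- BMDM. Every LPS array lay above every medium array of any genotype, and the medium arrays spread more than the LPS arrays, with an SD of 0.64 to 1.25 against 0.19 to 0.34. The rise was 18.5-fold in wt BMDM (log2 difference 4.21, SE 0.50, adjusted p = 1.75e-06), 28.1-fold in MK2-/- BMDM (4.81, SE 0.46, adjusted p = 6.26e-08) and 25.0-fold in MK2/3-/- BMDM (4.64, SE 0.50, adjusted p = 2.82e-07).

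Clec4d (MCL), which assembles with Clec4e at the cell surface, did not follow it. Its level in medium was 16.73, 16.61, 16.06 and 16.08 in wt, 16.79, 16.75, 15.99 and 16.49 in MK2-/- and 16.90, 16.75 and 16.13 in MK2/3-/- BMDM. After LPS it was 16.61, 15.99 and 16.46, 16.81, 16.87, 16.51 and 16.67 and 16.30, 16.28, 15.92 and 16.29 in the same order of genotypes. LPS and medium arrays overlapped within each genotype, and all 22 values lay between 15.92 and 16.90. The difference was -0.02 in wt BMDM (95% interval -0.52 to 0.49, adjusted p = 0.971), 0.21 in MK2-/- BMDM (-0.26 to 0.68, adjusted p = 0.485) and -0.40 in MK2/3-/- BMDM (-0.90 to 0.11, adjusted p = 0.190). These values depend on the scaling. With arrays scaled to their 75th percentile, which moves the median LPS response of all genes up by 0.34 in wt and 0.29 in MK2-/- BMDM, Clec4d was called higher by 0.76 (adjusted p = 0.00594) and by 0.94 (adjusted p = 5.43e-04), respectively.

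**Figure D1:**
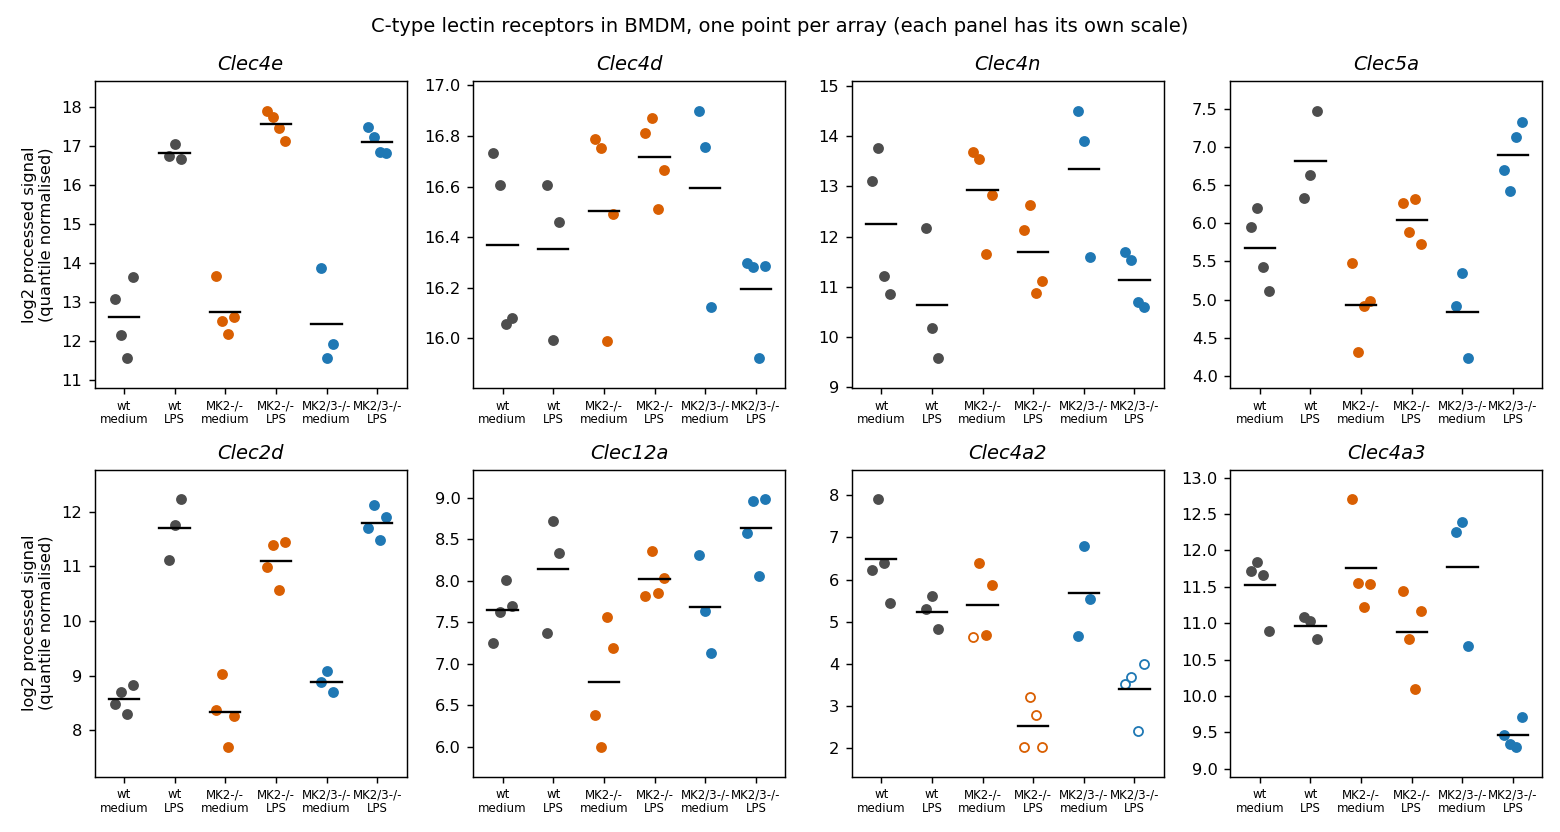
Log2 signal of the 8 receptors on each of the 22 arrays, 1 panel per gene, by genotype and treatment, where open points are arrays on which the probe was not well above background and bars are group means. Clec4e and Clec2d separate LPS from medium arrays in every genotype, whereas the LPS and medium arrays of Clec4d overlap in each.

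Clec4n, which recognises fungal mannans, varied widely between arrays of a group. Its level in medium was 13.11, 13.78, 11.21 and 10.86 in wt, 13.68, 13.55, 11.66 and 12.84 in MK2-/- and 14.51, 13.91 and 11.60 in MK2/3-/- BMDM, and after LPS 12.17, 10.18 and 9.57, 12.14, 12.64, 10.87 and 11.12 and 11.70, 11.53, 10.70 and 10.59. The LPS and medium arrays overlapped in all 3 genotypes, with group SDs of 0.57 to 1.54. The decrease was called in MK2/3-/- BMDM, at 4.63-fold (log2 difference -2.21, SE 0.80, adjusted p = 0.0287), and the difference was -1.60 (adjusted p = 0.119) in wt and -1.24 (adjusted p = 0.193) in MK2-/- BMDM. These calls depended on single arrays and on the test. The MK2/3-/- call was lost with the methods' t-test under Benjamini-Hochberg (adjusted p = 0.0914), with array weights (-1.83, adjusted p = 0.0832), and without LPS replicate 3 or 4 or without medium replicate 1 or 2 (adjusted p between 0.0625 and 0.150), and the wt decrease became called with array weights (-1.91, adjusted p = 0.0452) and without wt LPS replicate 1 (-2.37, adjusted p = 0.0328).

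Clec5a (MDL-1), a Tyrobp-coupled receptor of myeloid cells, was the third receptor to rise in every genotype. In medium its level was 5.95, 6.20, 5.43 and 5.11 in wt, 5.49, 4.32, 4.92 and 4.98 in MK2-/- and 4.92, 5.35 and 4.24 in MK2/3-/- BMDM. After LPS it was 6.33, 6.63 and 7.47, 6.26, 5.88, 6.32 and 5.73 and 6.69, 6.43, 7.13 and 7.33. Within each genotype the LPS arrays lay above the medium arrays with no overlap. The rise was 2.20-fold in wt (log2 difference 1.14, SE 0.35, adjusted p = 0.0127), 2.18-fold in MK2-/- (1.12, SE 0.32, adjusted p = 0.00744) and 4.16-fold in MK2/3-/- BMDM (2.06, SE 0.35, adjusted p = 6.21e-05). The wt call was lost without wt LPS replicate 3 (0.81, adjusted p = 0.101) and with the methods' t-test under Benjamini-Hochberg (adjusted p = 0.0844), and the MK2-/- call with another background correction, which subtracts a modelled background and adds an offset and so compresses dim probes (normexp; 0.41, adjusted p = 0.0504).

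Of the receptors with an inhibitory motif, Clec4a2 (DCIR) decreased after LPS where it changed, and Clec12a rose in the kinase-deficient genotypes. Clec4a3, the relative of Clec4a2, also decreased where it changed. The level of Clec4a2 in medium was 6.23, 7.90, 6.39 and 5.44 in wt, 4.64, 6.39, 4.69 and 5.87 in MK2-/- and 4.67, 6.81 and 5.55 in MK2/3-/- BMDM. After LPS it was 5.30, 5.61 and 4.82 in wt, 2.03, 3.21, 2.79 and 2.03 in MK2-/- and 3.53, 3.68, 2.41 and 4.00 in MK2/3-/- BMDM. The probe was dim: it was well above background on 13 of the 22 arrays and on none of the 4 LPS arrays of MK2-/- or the 4 of MK2/3-/- BMDM, so that folds against those groups are lower bounds. Clec4a2 fell at least 3.64-fold in MK2-/- BMDM (log2 difference -2.88, SE 0.54, adjusted p = 2.00e-04) and at least 3.66-fold in MK2/3-/- BMDM (-2.27, SE 0.58, adjusted p = 0.00322). In both, no LPS array overlapped a medium array. In wt BMDM the difference was -1.25 (SE 0.58, adjusted p = 0.0953) and the groups overlapped, while without wt medium replicate 4 it was -1.60 and called (adjusted p = 0.0416). With the normexp background correction the decreases were called at -0.69 (adjusted p = 0.0330) in MK2-/- and -0.68 (adjusted p = 0.0483) in MK2/3-/- BMDM.

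Clec4a3 gave a brighter probe, well above background on all 22 arrays. Its level in medium was 11.72, 11.83, 11.66 and 10.89 in wt, 12.70, 11.55, 11.22 and 11.54 in MK2-/- and 12.25, 12.39 and 10.69 in MK2/3-/- BMDM. After LPS it was 11.08, 11.03 and 10.78 in wt, 11.44, 10.79, 10.10 and 11.16 in MK2-/- and 9.47, 9.34, 9.30 and 9.71 in MK2/3-/- BMDM. The 4 LPS arrays of MK2/3-/- BMDM, between 9.30 and 9.71, lay below all 18 others, of which the lowest was 10.10. Clec4a3 fell 4.99-fold in MK2/3-/- BMDM (log2 difference -2.32, SE 0.40, adjusted p = 7.86e-05). The difference was -0.56 (adjusted p = 0.281) in wt and -0.88 (adjusted p = 0.0614) in MK2-/- BMDM, where LPS and medium arrays overlapped in both. The MK2-/- decrease was near the threshold and became called with the normexp background correction (-0.86, adjusted p = 0.0439), with a replicate block (adjusted p = 0.0409 by the number in the title and 0.0391 by the letter of the array), and without MK2-/- LPS replicate 1 (-1.07, adjusted p = 0.0367), MK2-/- medium replicate 3 (-1.06, adjusted p = 0.0397) or MK2/3-/- medium replicate 3 (adjusted p = 0.0269). Whether probes of these close relatives also bind each other's transcripts was not tested.

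Clec12a (MICL), an inhibitory receptor that detects uric acid crystals, had a level in medium of 7.25, 7.62, 8.01 and 7.70 in wt, 6.39, 6.00, 7.57 and 7.19 in MK2-/- and 8.31, 7.63 and 7.13 in MK2/3-/- BMDM. Its LPS arrays gave 7.37, 8.73 and 8.33, 7.82, 8.36, 7.85 and 8.03 and 8.57, 8.96, 8.06 and 8.98. The arrays separated by treatment in MK2-/- BMDM only, where the rise was 2.35-fold (log2 difference 1.23, SE 0.35, adjusted p = 0.00744). The rise of 0.95 in MK2/3-/- BMDM passed narrowly (SE 0.38, adjusted p = 0.0465), its groups overlapped, and it was lost in 12 of the 22 fits with 1 array left out and in several other settings, among them the deposited values (adjusted p = 0.0522). In wt BMDM the difference was 0.50 (adjusted p = 0.321).

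Clec2d, the ligand, rose in all 3 genotypes. In medium its level was 8.48, 8.71, 8.30 and 8.83 in wt, 8.36, 9.02, 7.70 and 8.26 in MK2-/- and 8.89, 9.09 and 8.70 in MK2/3-/- BMDM. The LPS arrays gave 11.11, 11.76 and 12.22 in wt, 10.98, 11.39, 10.57 and 11.45 in MK2-/- and 11.71, 12.11, 11.48 and 11.89 in MK2/3-/- BMDM. The lowest LPS array, at 10.57, lay above the highest medium array, at 9.09. The rise was 8.69-fold in wt (log2 difference 3.12, SE 0.30, adjusted p = 1.16e-07), 6.78-fold in MK2-/- (2.76, SE 0.28, adjusted p = 1.02e-07) and 7.50-fold in MK2/3-/- BMDM (2.91, SE 0.30, adjusted p = 1.52e-07).

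**Figure D2:**
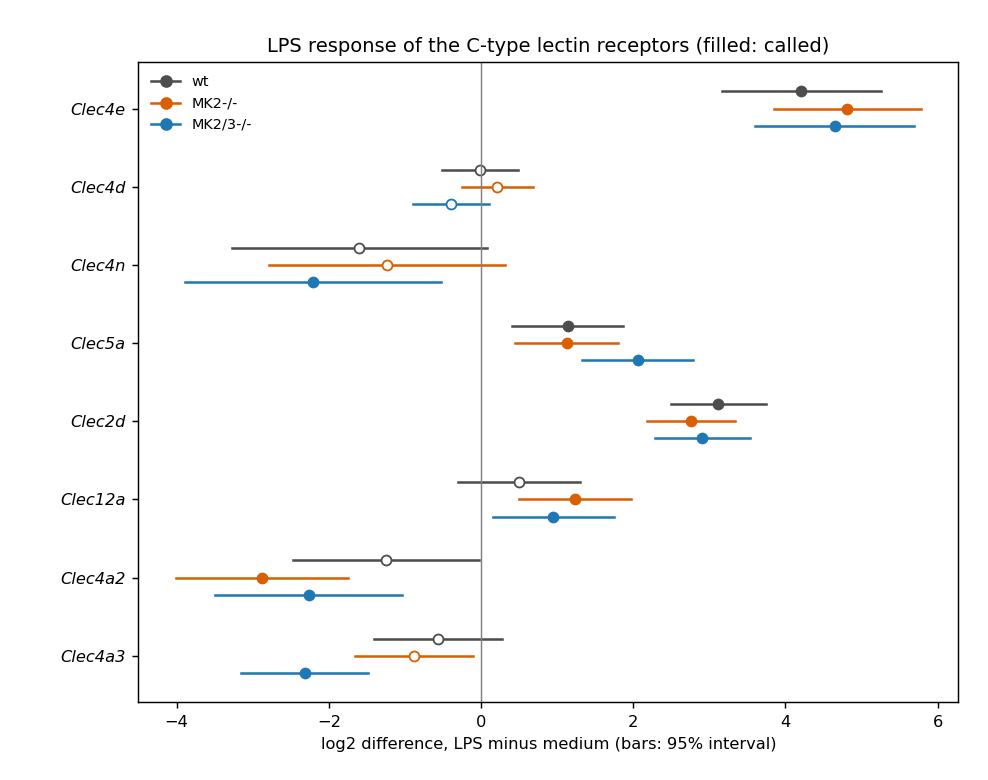
Log2 difference of LPS against medium for the 8 receptors in wt, MK2-/- and MK2/3-/- BMDM, with 95% confidence intervals, where filled points passed the test. Clec4e lies above 4 in every genotype and Clec2d between 2.76 and 3.12, while the point of Clec4a3 is at -2.32 in MK2/3-/- BMDM and at -0.56 in wt BMDM.

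Between genotypes under LPS, the called differences were those of Clec4a2 and Clec4a3, and all were decreases in the kinase-deficient cells. Genotype and slide cannot be told apart here, so dependence on MK2 or MK3 cannot be read from them alone. The comparisons share arrays: both kinase-deficient genotypes are set against the same 3 wt arrays. In MK2-/- against wt BMDM, 1 of the 8 receptors was called, with 11.6% of all genes called. In MK2/3-/- against wt BMDM 2 were called, with 23.6% of all genes, and in MK2/3-/- against MK2-/- BMDM 1 was called, with 13.5%. The counts are 12.5%, 25% and 12.5% of the 8 receptors, near the shares over all genes. Where arrays were scaled to the 75th percentile, the share of called genes that were higher moved from 39.0% to 63.7%, from 40.7% to 57.3% and from 57.1% to 68.6% in these comparisons.

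Clec4a2 was lower than in wt LPS arrays by at least 3.27-fold in MK2-/- BMDM (log2 difference -2.73, SE 0.58, adjusted p = 0.00868) and by at least 2.71-fold in MK2/3-/- BMDM (-1.84, SE 0.58, adjusted p = 0.0296). All 8 kinase-deficient LPS arrays, at most 4.00, lay below the lowest wt LPS array, at 4.82. Without the 2 arrays of low Y-linked signal the difference in MK2-/- BMDM was -2.82 (adjusted p = 0.0134). Both calls were lost with the 75th percentile scaling (-1.68, adjusted p = 0.0942, and -1.02, adjusted p = 0.265) and with the normexp background correction (-0.52, adjusted p = 0.207, and -0.36, adjusted p = 0.366). The call in MK2/3-/- BMDM was also lost with the methods' t-test under Benjamini-Hochberg (adjusted p = 0.104), with array weights (-1.61, adjusted p = 0.0615), without wt LPS replicate 1 (adjusted p = 0.0805) or 2 (adjusted p = 0.0938) and without MK2/3-/- LPS replicate 1 (adjusted p = 0.05005) or 3 (adjusted p = 0.0802).

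Clec4a3 was lower in LPS-treated MK2/3-/- BMDM than in wt BMDM by 2.84-fold (log2 difference -1.50, SE 0.40, adjusted p = 0.0113) and than in MK2-/- BMDM by 2.67-fold (-1.42, SE 0.37, adjusted p = 0.0163). The second call was lost without MK2-/- LPS replicate 1 (-1.23, adjusted p = 0.0642) and with the methods' t-test under Benjamini-Hochberg (adjusted p = 0.0745). Without the 2 arrays of low Y-linked signal it was -1.67 (adjusted p = 0.00668).

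The LPS arrays of 2 genotypes did not overlap for 3 of the 8 receptors in MK2-/- against wt, 2 in MK2/3-/- against wt and 4 in MK2/3-/- against MK2-/- BMDM, where this held for 27.8%, 28.2% and 14.3% of all genes. Among these, some did not pass the test. Clec4e lay higher in MK2-/- than in wt BMDM (difference 0.74, adjusted p = 0.336), and Clec5a lay lower (-0.76, adjusted p = 0.151). In MK2/3-/- against MK2-/- BMDM the arrays of Clec5a (0.85, adjusted p = 0.0888) and Clec2d (0.70, adjusted p = 0.0990) lay higher and those of Clec4d lower (-0.52, adjusted p = 0.132). For Clec2d against wt in MK2-/- BMDM the difference was -0.60 (adjusted p = 0.187), and the arrays overlapped. With array weights Clec5a (-0.97, adjusted p = 0.0347) and Clec2d (-0.79, adjusted p = 0.0250) were called in MK2-/- against wt BMDM.

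**Figure D3:**
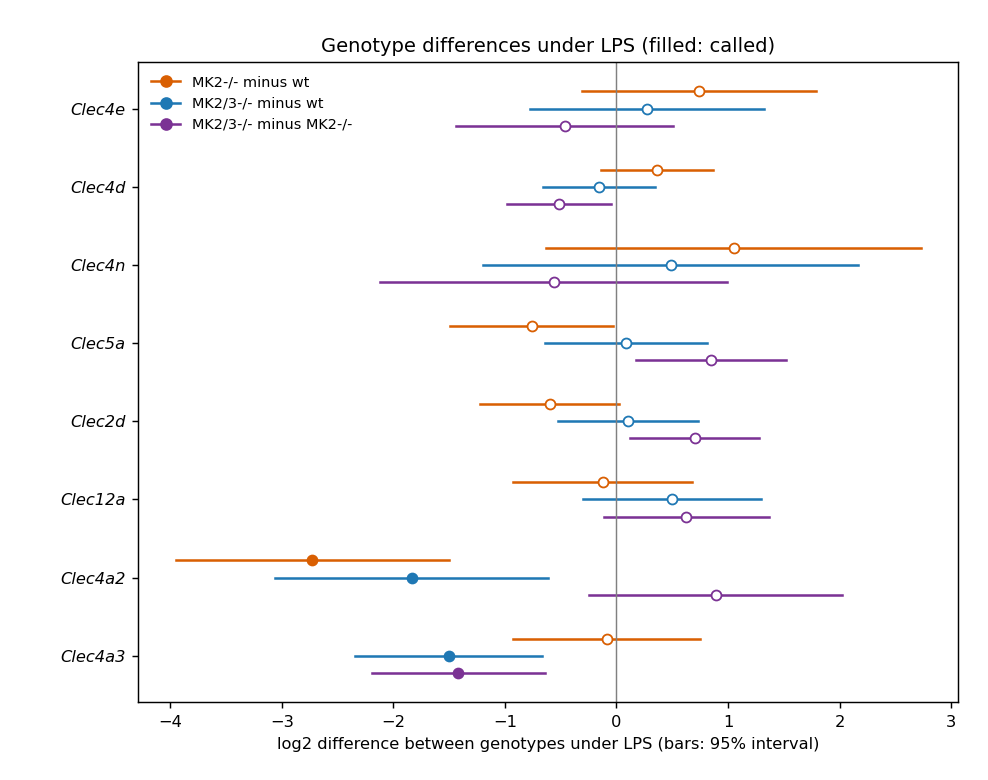
Log2 difference between genotypes in LPS-treated BMDM for the 8 receptors, in 3 comparisons, with 95% confidence intervals, where filled points passed the test. The filled points are Clec4a2 in both comparisons with wt, at -2.73 and -1.84, and Clec4a3 in both comparisons of MK2/3-/- BMDM, at -1.50 and -1.42.

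In medium, none of the 8 receptors was called between genotypes. Over all genes, 8.82% were called in MK2-/- against wt, 2.02% in MK2/3-/- against wt and 2.82% in MK2/3-/- against MK2-/- BMDM. At an unadjusted p below 0.05, Clec12a and Clec5a passed in the first comparison, Clec5a in the second and Clec12a in the third, which is 2, 1 and 1 of 8 where 25.9%, 16.9% and 15.0% of all genes passed. The differences for MK2-/- against wt BMDM were -0.86 for Clec12a (adjusted p = 0.133), -1.10 for Clec4a2 (adjusted p = 0.209) and -0.75 for Clec5a (adjusted p = 0.151). Clec5a was -0.84 in MK2/3-/- against wt BMDM (adjusted p = 0.221), Clec4n 1.10 (adjusted p = 0.521), and Clec12a 0.90 in MK2/3-/- against MK2-/- BMDM (adjusted p = 0.256). The medium and LPS arrays of Clec4a3 can be read side by side, since wt BMDM went from a mean of 11.53 ± 0.43 (SD, n = 4) to 10.96 ± 0.16 (SD, n = 3), MK2-/- BMDM from 11.75 ± 0.65 (SD, n = 4) to 10.87 ± 0.58 (SD, n = 4), and MK2/3-/- BMDM from 11.78 ± 0.94 (SD, n = 3) to 9.46 ± 0.19 (SD, n = 4).

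Whether the LPS response itself differed between genotypes was tested as the interaction of genotype and treatment, in which an additive effect of the slide cancels. No receptor passed. Over all genes, 0% were called for MK2-/- against wt (0 genes, with 1685 at an unadjusted p below 0.05), 0.679% for MK2/3-/- against wt (152 genes) and 0.067% for MK2/3-/- against MK2-/- (15 genes). The response of Clec4a3 was more negative in MK2/3-/- than in wt BMDM by 1.75 (95% interval of the difference -2.94 to -0.57, unadjusted p = 0.00597 and adjusted p = 0.165 by limma) and differed from that in MK2-/- BMDM by -1.44 (adjusted p = 0.462). For Clec4a2 the response in MK2-/- against wt BMDM differed by -1.63 (adjusted p = 0.668). For Clec5a the response in MK2/3-/- BMDM differed by 0.92 from wt (-0.11 to 1.95, adjusted p = 0.520) and by 0.94 from MK2-/- BMDM (adjusted p = 0.612). For Clec4e the difference from wt was 0.61 (-0.82 to 2.03, adjusted p = 0.869) in MK2-/- and 0.44 (-1.04 to 1.92, adjusted p = 0.915) in MK2/3-/- BMDM, and for Clec2d -0.36 (-1.21 to 0.49, adjusted p = 0.871) and -0.21 (-1.09 to 0.67, adjusted p = 0.936). These intervals are wide, so that equal responses of Clec4e or Clec2d across genotypes are not shown.

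The 6 groups were also ordered by their mean level for each receptor. For Clec4e and Clec2d all LPS groups stood above all medium groups, and neighbouring groups within a treatment overlapped. For Clec4a2 the wt LPS group stood next to the medium groups, which it overlapped, and apart from both kinase-deficient LPS groups, which overlapped each other. For Clec4a3 the MK2/3-/- LPS group stood apart as the lowest, and neighbours among the other 5 groups overlapped. For Clec5a the gap between the wt and MK2-/- LPS groups was the only place in the order where neighbours did not overlap, and for Clec4d, Clec4n and Clec12a all neighbours overlapped.

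The 27 listed adaptors, kinases and downstream proteins of the activating receptors were all tested. After LPS 8 were called higher and 8 lower in wt, 11 and 10 in MK2-/-, and 9 and 9 in MK2/3-/- BMDM. In either direction these are 59.3%, 77.8% and 66.7% of the list. Of all 22383 genes, 9423, 9988 and 10779 were called in either direction, which are smaller shares. Split by direction, 18.6% of all genes were called higher and 23.5% lower in wt, 17.5% and 27.1% in MK2-/-, and 20.2% and 27.9% in MK2/3-/- BMDM. The largest changes in wt BMDM were those of Malt1, the paracaspase below Card9 and Bcl10 (4.25, SE 0.23, adjusted p = 2.75e-10), the transcription factor gene Nfatc2 (-4.10, SE 0.54, adjusted p = 6.28e-06) and Lcp2, which codes for the scaffold SLP-76 (3.86, SE 0.39, adjusted p = 2.42e-07). Syk, Card9, Tyrobp and Fcer1g were added for their role beside the receptors after their values were seen. The mean of Fcer1g in medium and after LPS was 17.48 and 17.97 in MK2-/- and 17.49 and 17.85 in MK2/3-/- BMDM. In wt BMDM it was 17.42 and 17.06, where the lowest LPS array was at 15.25 and the LPS median at 17.95. Syk, the kinase that the activating receptors share, rose by 1.22 in wt, 1.57 in MK2-/- and 1.46 in MK2/3-/- BMDM (log2, adjusted p = 0.00125, 3.35e-05 and 1.68e-04). Tyrobp, the adaptor of Clec5a, fell by 1.08, 1.10 and 1.19 (adjusted p = 2.86e-04, 7.17e-05 and 7.39e-05), although with the 75th percentile scaling it was no longer called in any genotype and stood at -0.20, -0.40 and -0.23. Card9 fell by 1.15, 2.21 and 1.19 (adjusted p = 0.0275, 6.58e-05 and 0.0204), and stayed called in 19, 22 and 19 of the 22 fits with 1 array left out.

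Between genotypes under LPS, 3 of the 27 were called higher and 2 lower in MK2-/- than in wt BMDM, 3 and 3 in MK2/3-/- than in wt BMDM, and 1 and 4 in MK2/3-/- than in MK2-/- BMDM. These are 18.5%, 22.2% and 18.5% of the list, where 11.6%, 23.6% and 13.5% of all genes were called, so that the share against wt in MK2/3-/- BMDM was no higher than over all genes. Higher than wt in both kinase-deficient genotypes were Bcl10 (0.63 and 0.66), the B cell linker Blnk (0.98 and 0.75) and the exchange factor Vav3 (1.31 and 1.12). Lower than wt in both were Vav1, the exchange factor of blood cells (-0.79 and -1.38), and Nfatc3, an NFAT transcription factor (-0.78 and -2.02), and the Src family kinase gene Fgr was lower in MK2/3-/- BMDM (-1.44). With 1 array left out, the calls against wt in MK2/3-/- BMDM stayed in all 22 fits for Bcl10, Nfatc3 and Vav1, in 21 for Blnk and Fgr, and in 8 for Vav3. Those in MK2-/- BMDM stayed in 22 for Bcl10, 21 for Blnk, 18 for Vav1, 16 for Vav3 and 7 for Nfatc3. In MK2/3-/- against MK2-/- BMDM, Nfatc3 (-1.25, kept in 22 fits), Card9 (-1.38, in 19), Fgr (-1.27, in 18) and the kinase gene Prkcd (-0.75, in 20) were lower. Nfatc2 was higher by 1.89 (in 19), but another probe of the gene gave 0.10 and no call.

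Of the 27, Nfatc3 and Vav1 also passed the test of the LPS response between MK2/3-/- and wt BMDM, with 0 of the 27 called in the other 2 such tests. These 2 genes are 7.41% of the list, where 0.679% of all genes passed. In the other tests 0% of all genes passed for MK2-/- against wt and 0.067% for MK2/3-/- against MK2-/- BMDM. In wt BMDM the mean of Nfatc3 was 8.99 in medium and 8.69 after LPS, against 8.90 and 6.67 in MK2/3-/- BMDM, which makes a difference in response of -1.93 (SE 0.34, adjusted p = 0.0229). The means of Vav1 were 15.48 and 14.91 in wt and 15.62 and 13.54 in MK2/3-/- BMDM, with a difference of -1.51 (SE 0.30, adjusted p = 0.0347). The calls stayed in 17 and 13 of the 22 fits with 1 array left out. In medium 2 of the 27 were called higher in MK2-/- than in wt BMDM (Bcl10 by 0.62 and Card9 by 1.56), 0 between MK2/3-/- and wt BMDM, and 1 lower in MK2/3-/- than in MK2-/- BMDM (Card9, by 2.40), and these were named after their values were seen. The counts of 2 and 1 are 7.41% and 3.70% of the list, near the 8.82% and 2.82% of all genes.

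**Figure D4:**
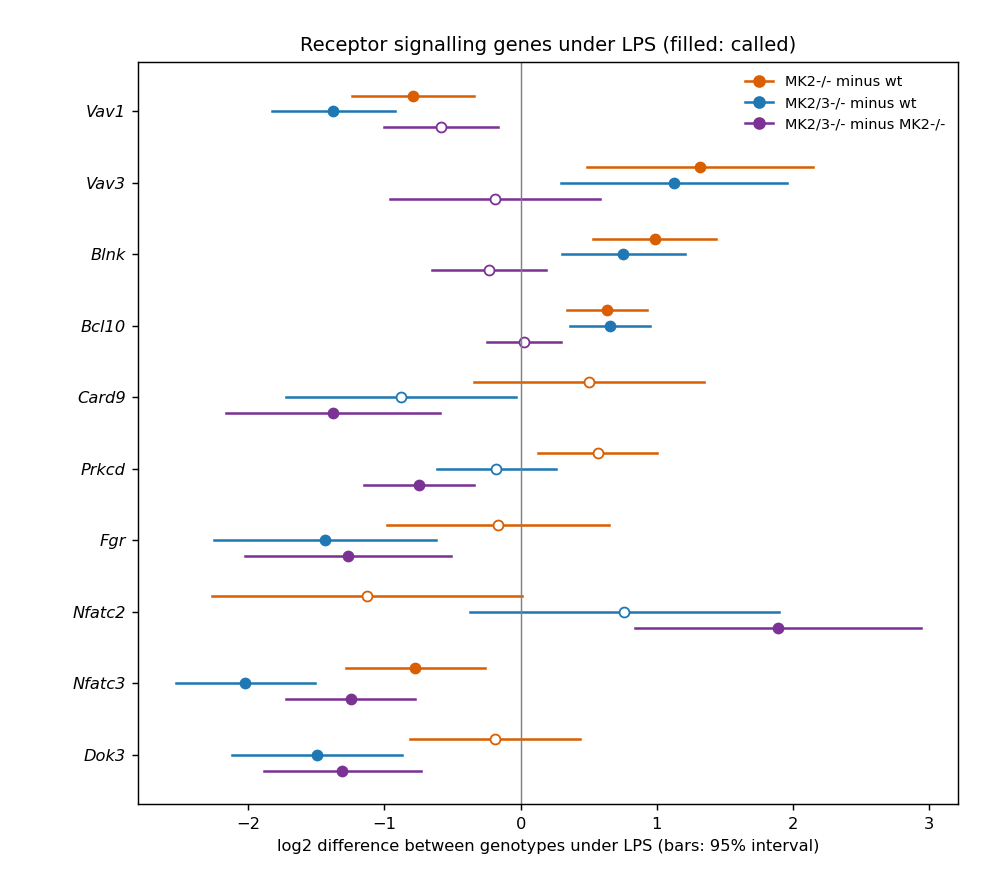
Log2 difference between genotypes in LPS-treated BMDM, in 3 comparisons, with 95% confidence intervals, where filled points passed the test. Only genes of the signalling and inhibitory lists that were called between genotypes under LPS are drawn. These are Vav1, Vav3, Blnk, Bcl10, Card9, Prkcd, Fgr, Nfatc2, Nfatc3 and Dok3. For MK2/3-/- against wt BMDM, the filled points below 0 include Nfatc3 at -2.02, Dok3 at -1.50, Fgr at -1.44 and Vav1 at -1.38.

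The 8 listed genes of phosphatases and other inhibitory proteins that receptors with inhibitory motifs recruit gave 0 higher and 2 lower calls after LPS in wt BMDM, and 1 higher and 3 lower in each kinase-deficient genotype, where between 17.5% and 20.2% of all genes were called higher and between 23.5% and 27.9% lower. Inpp5d, which codes for the lipid phosphatase SHIP, fell by 4.72 in wt BMDM (SE 0.36, adjusted p = 7.97e-09). The adaptor gene Dok1 fell by 0.82 (SE 0.25, adjusted p = 0.0122). Under LPS, 0 of the 8 were called in MK2-/- against wt BMDM and 1 in each of the other comparisons, with 11.6%, 23.6% and 13.5% of all genes called. The adaptor gene Dok3 was lower in MK2/3-/- BMDM than in wt BMDM by 1.50 and than in MK2-/- BMDM by 1.31 (adjusted p = 0.00180 and 0.00390), and both calls stayed in all 22 fits with 1 array left out.

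Of 50 other C-type lectin genes, 44 were tested. After LPS, 10 were called higher and 2 lower in wt, 9 and 2 in MK2-/-, and 11 and 7 in MK2/3-/- BMDM. In either direction these are 27.3%, 25.0% and 40.9% of the genes tested, each below the share over all genes. Of all 22383 genes, 9423, 9988 and 10779 were called in either direction. Split into higher and lower, the shares of all genes were 18.6% and 23.5%, 17.5% and 27.1%, and 20.2% and 27.9%. The largest changes in wt BMDM were those of the activation marker Cd69 (6.95, SE 0.51, adjusted p = 4.93e-09), of Olr1, a receptor for oxidised low-density lipoprotein (4.72, SE 0.87, adjusted p = 2.35e-04), and of Clec1a, which fell at least 7.98-fold and was not well above background on any LPS array. Under LPS, 2 were called higher and 0 lower in MK2-/- than in wt BMDM, 6 and 1 in MK2/3-/- than in wt BMDM, and 6 and 0 in MK2/3-/- than in MK2-/- BMDM. These are 4.55%, 15.9% and 13.6% of the genes tested, below the 11.6% and 23.6% of all genes in the comparisons with wt and near the 13.5% in the last.

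Clec9a, a receptor for exposed actin on dead cells that marks a class of dendritic cells, was higher in LPS-treated MK2/3-/- BMDM by 2.98 against wt and by 2.90 against MK2-/- BMDM (adjusted p = 0.00131 and 0.00121). Its group mean was 6.94 there, compared with 3.88 to 4.84 in the other 5 groups, and it was well above background on all 4 of those arrays, on 1 of 3 wt LPS arrays and on 2 of 4 MK2-/- LPS arrays. Of 7 dendritic cell markers with a named probe, Clec9a included, 2 were called higher in MK2/3-/- than in wt LPS arrays (Clec9a and Xcr1) and 3 than in MK2-/- LPS arrays (these and Flt3), the other 2 names being outside the rule for named genes. In both comparisons 0 were called lower. These are 28.6% and 42.9% of the 7 markers, where 23.6% and 13.5% of all genes were called in either direction. The share against wt is thus near that over all genes. Xcr1 was well above background on all 4 MK2/3-/- LPS arrays and on no array of the other 5 groups. It thus passed the probe filter only through the group where it was high, so its call adds no separate evidence. The summed signal (log2) of the 7 markers ran from 16.11 to 16.67 on MK2/3-/- LPS arrays, 15.68 to 16.34 on wt and 15.69 to 16.63 on MK2-/- LPS arrays. The part of these cells in the levels of Clec4a2 and Clec4a3 was not tested.

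Also higher in MK2/3-/- than in wt LPS arrays, with calls that stayed in all 22 fits with 1 array left out, were Clec1b, known from platelets (0.85), and Clec2i (0.99), a relative of Clec2d. The calls of Cd209d (1.20, kept in 18 fits), a relative of the dendritic cell receptor DC-SIGN, of Fcer2a (0.60, in 19), the low-affinity receptor for IgE, and of Clec2e (1.46, in 5), a relative of Clec2d, rested on some arrays. Klrb1b, whose product is the receptor for Clec2d, was lower by at least 1.55-fold (adjusted p = 0.0398), with the call kept in 17 fits. In MK2-/- against wt BMDM the higher genes were Cd209d (1.49, in 20) and Asgr2 (0.90, in 6), a subunit of the asialoglycoprotein receptor. In MK2/3-/- against MK2-/- BMDM they were Clec14a (3.25), Clec2e (2.80) and Clec1b (0.79), each kept in all 22 fits, Fcer2a (0.54, in 8) and Clec3b (1.19, in 6), besides Clec9a. No gene of this list passed the interaction test in any of the 3 comparisons, where at most 0.679% of all genes did.

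Over the 22 arrays, the genes whose level followed Clec4e most closely among 17513 other genes were Gbp6, an interferon-inducible GTPase (Pearson r 0.984), the signalling adaptor Traf1 (0.984) and the sugar transporter Slc2a6 (0.983). For Clec2d they were the cytokine gene Tnf (0.980), Slfn8 (0.979) and Znfx1 (0.977). These correlations describe arrays that LPS separates into 2 clusters, and any gene with a large LPS response shares that separation.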

How the data were processed

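Transcript levels were measured on 22 arrays of BMDM, which the sample labels place in 6 groups by genotype and treatment. The deposited scanner output gives a processed intensity per spot, background-corrected by Feature Extraction (version 11.0.1.1) and not normalised across arrays. A deposited table of log2 values, which the authors quantile normalised and centred per probe, served as an alternative only.

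After removal of control spots and of spots marked as outliers, log2 processed signals were quantile normalised over all arrays and spots of a probe were averaged. RefSeq accessions named 27509 of 29150 such probes through a table on GRCm38.p6, while the array design uses mm9. A probe had to be well above background on 3 or more arrays, and the brightest probe stood for its gene. A model with 6 group means was fitted to all arrays with limma 3.58.1 in R 4.3.3, followed by eBayes. Calls are at a two-sided Benjamini-Hochberg adjusted p below 0.05 over 22383 genes. For a group in which no array measured a probe above background, folds are given as bounds: each such array took the larger of its own value and the weakest signal above background on that array. The model was tested on simulated data, in which 100 genes changed by a log2 of 1 and 100 by 2 in wt LPS arrays. It called 23% and 64% of them, respectively, so that many true changes of this size were missed. Far fewer genes changed there than are called after LPS here, so these shares need not hold for the data.

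Per the methods the experiments were independent, and p-values measure the spread between arrays. LPS and medium arrays of a genotype share replicate numbers, and arrays of the same number deviated together (correlation above 0.1) in 7 of 10 pairs, against 6 of 30 pairs of unlike number. Mouse ages matched in 8 of the 10 pairs by number and in all 10 pairs by the letter in the array name. The main fit left the arrays unpaired, as did the two-sample test of the methods, and a replicate block was kept as an alternative. Named were the 8 receptors in every comparison, the targeted genes, and of the other lists the genes called between genotypes under LPS or in an interaction and the 3 called genes with the largest LPS response in wt BMDM. The receptors, lists and motifs were chosen with earlier results of these data known. Alternatives were another scaling and background correction, the deposited values, other probe filters and probes, the methods' t-test, array weights, a replicate block and leaving out arrays.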

Additional observations from a re-analysis of the deposited data

Results flagged for a closer look

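Among 32 groups of 4 arrays examined for the 8 receptors, 1 array stood apart. For Clec4d in LPS-treated MK2/3-/- BMDM, replicate 3 had a level of 15.92, while the other 3 arrays lay between 16.28 and 16.30. Its gap to the nearest array was a larger share of the group's range than Dixon's 95% critical value for groups of this size, which chance gives in about 1 of 20 groups.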

How the results depend on the processing

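Among 96 differences of the 8 receptors, the 19 called ones kept direction and call in 249 of 266 refits under other settings and in 396 of 418 with 1 array left out, and none reversed. The 77 that were not called reversed in 29 of 1030 refits under other settings and in 53 of 1694 with 1 array left out. They became called, in the same direction, in 12 and 5 of these refits, respectively. With the 75th percentile scaling the LPS difference of Clec4d reversed to 0.76 in wt and 0.50 in MK2/3-/- BMDM, and that of Clec5a between MK2/3-/- and wt medium arrays to 0.049. Clec4d in wt was also 0.11 with the deposited values, 0.0022 with array weights and between -0.14 and 0.17 with 1 array left out. Leave-one-out ranges for the response of MK2/3-/- against wt BMDM were -0.0064 to 1.15 for Clec4e and -0.51 to 0.050 for Clec2d. Under LPS, the count of called receptors in MK2-/- against wt was 1, but 0 with the 75th percentile scaling and with normexp, 2 with the methods' t-test unadjusted and 3 with array weights. In MK2/3-/- against wt it was 2, but 1 with the 75th percentile scaling, normexp, the t-test after Benjamini-Hochberg adjustment and array weights, and 1 to 2 with 1 array left out. In MK2/3-/- against MK2-/- it was 1, but 5 with the unadjusted t-test, 0 with the adjusted one and 0 to 1 with 1 array left out. The cause was not tested. Over all genes, the 75th percentile scaling moved the share of called genes that were higher after LPS from 44.2% to 60.5% in wt, 39.2% to 53.6% in MK2-/- and 42.0% to 54.1% in MK2/3-/- BMDM, and the share higher in medium from 64.7% to 84.0%, 74.1% to 90.1% and 70.7% to 89.5% for MK2-/- against wt, MK2/3-/- against wt and MK2/3-/- against MK2-/-. Signal over background limits Clec4a2.

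With the replicate number in the title, or the letter in the array name, as a block within genotype, Clec4a3 became called in MK2-/- BMDM after LPS (-0.88, adjusted p = 0.0409 and 0.0391, from 0.0614), which made 6 called receptors there in place of 5. Pairing by letter gave a correlation above 0.1 in 7 of 10 pairs, as by number, against 6 of 30 unlike pairs. The block changed no other call of a receptor.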
